A study of Homo sapiens with 6 samples.

Results

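The genes described here are the core of transforming growth factor beta (TGF-beta) signalling: the ligand genes TGFB1 and TGFB2, the receptor genes TGFBR1 and TGFBR2, the signal transducer SMAD3, the regulators SKI, SKIL and SMURF2, and the response genes PMEPA1 and TGFBI. They were taken by symbol from the deposited expression table, which held all 10 of them among its 16200 genes, and each passed the filter on low counts. Poly(A)-selected RNA of RBE, a cell line grown from a human bile duct cancer of the liver, was sequenced in 6 libraries. There were 3 libraries of the group labelled NC, which served as the reference, and 3 of the group labelled sgKCNQ3, a name that points to a guide RNA against the potassium channel gene KCNQ3. The labels give no time, drug or further treatment for either group, and do not spell out NC, name the guide's sequence or effector, or say whether a group is 1 clone. Nor do they state that each library is a culture of its own, and every p-value therefore refers to the scatter among these 6 libraries, part or all of which may be technical.

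Total counts were 15601283 to 16089500 per library. KCNQ3 itself, the check of the labels, held 256, 257 and 252 counts in NC and 222, 206 and 191 in sgKCNQ3, which is 16.3 ± 0.254 against 12.99 ± 1.0 CPM, a count scaled to library size (SD, n = 3 each; log2 fold change -0.33, SE 0.0841, adjusted p 0.00446). On log2(TPM + 1) this difference was not called (-0.15, adjusted p 0.151). All 7 biliary markers were present, with a summed level of 4054 to 4142 TPM in NC and 4717 to 4828 in sgKCNQ3 (TPM is a level corrected for transcript length, with the same sum in every library). The fibroblast list, 6 of 7 in the table, summed to 5.93 to 6.83 TPM in NC and 8.5 to 9.45 in sgKCNQ3. The endothelial list stayed at or below 0.43 TPM in every library. Of the leukocyte list, 4 of 5 in the table, CD68, a gene for a lysosomal protein, made up nearly all of the 93.8 to 100.09 TPM in NC and 79.6 to 86.9 in sgKCNQ3, while PTPRC and CD3E had at most 0.03 TPM as a group mean. The 3 platelet markers were not analysed here. On the TPM scale the biliary and fibroblast sums were higher and the CD68-led sum lower in sgKCNQ3. On log2(TPM + 1) the median log2 fold change of all tested genes was itself 0.065. In the edgeR fit of counts CD24, KRT8, KRT18 and SOX9 were called higher. KRT7 (log2 fold change 0.036, adjusted p 0.459), KRT19 (adjusted p 0.0956) and EPCAM (adjusted p 0.222) were not called in that fit. PDGFRA, which rose from 3.92 to 6.12 TPM, carried nearly all of the fibroblast difference, and the part of these shifts in the results was not tested.

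TGF-beta ligands are secreted in a latent form, held by their own propeptide and by latent TGF-beta binding proteins, and are released by integrins or proteases. The active dimer joins the type II receptor TGFBR2 to the type I receptor TGFBR1, which phosphorylates SMAD2 and SMAD3, and these enter the nucleus with SMAD4. In normal bile duct epithelium the pathway restrains growth, while in cholangiocarcinoma it is known for its part in fibrosis of the stroma and in epithelial-mesenchymal transition. SKI and SKIL hold SMAD complexes in a repressed state, the ubiquitin ligase SMURF2 marks receptors and SMADs for degradation, and PMEPA1, TGFBI and SKIL are themselves induced by TGF-beta.

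RBE cells expressed every member, over a wide range of levels. In NC, TGFBI lay at 427 ± 17.8 TPM, and its mean over all 6 libraries was above that of 97.5% of the tested genes. PMEPA1 followed at 186.5 ± 1.49 TPM in NC. TGFBR2 (81.1 ± 1.70) and SMAD3 (79.3 ± 1.96 TPM) came next and overlapped in the 3 NC libraries. TGFB1 stood at 53.7 ± 0.679, TGFB2 at 37.9 ± 0.578 and SMURF2 at 32.2 ± 0.881 TPM, and these 3 were separate from each other in NC, although TGFB2 and SMURF2 overlapped over all 6 libraries. TGFBR1 lay at 12.4 ± 0.746 TPM, about 6 times below its partner receptor: the TGFBR2 to TGFBR1 ratio was 6.54 ± 0.289. SKI (9.79 ± 0.810) and SKIL (8.86 ± 0.617 TPM) were lowest, and their NC ranges overlapped. The order of the group means in sgKCNQ3 differed only at TGFBR2 and SMAD3, where SMAD3 (95.9 ± 5.39 TPM) came above TGFBR2 (87.3 ± 1.58).

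**Figure D1:**
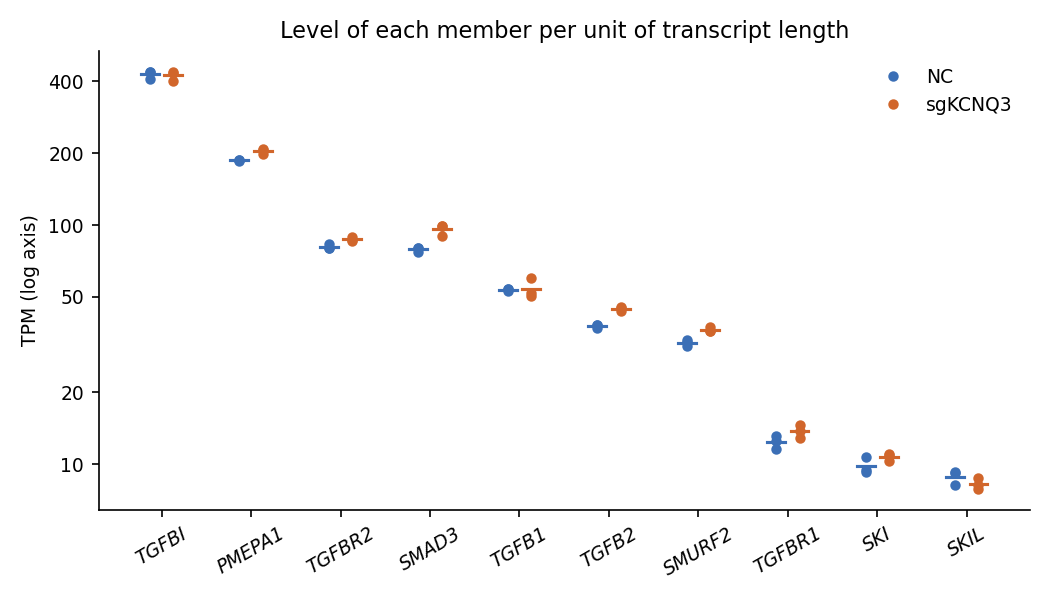
Level of each member in TPM (vertical log axis) in the 3 NC libraries (blue) and the 3 sgKCNQ3 libraries (orange), with horizontal bars at the group means, ordered by the NC mean. The levels run from 427 TPM for TGFBI to 8.86 TPM for SKIL in NC, and the groups lie close together for every gene.

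Between the groups the members differed little. SMAD3 and TGFB2 were called higher in sgKCNQ3 and SKIL and TGFBI lower, by at most 14.1%, and TGFB1, TGFBR1, TGFBR2, SKI, SMURF2 and PMEPA1 passed no threshold. Thus 4 of 10 members were called at an adjusted p of 0.05 (edgeR quasi-likelihood test, adjusted over 12565 genes), against 29.1% of all tested genes, of which 14% were higher and 15.1% lower. Higher genes made up 48.2% of all calls here, 64.5% with library size alone and 80.8% on log2(TPM + 1). The members' share is near that background and is no result about the members as a set. Their median log2 fold change was 0.046, against -0.0074 over all tested genes. The groups did not overlap for 5 members, SMAD3, TGFB2, SMURF2, PMEPA1 and SKIL, against 41.7% of tested genes. The values are abundances of RNA in whole cultures, where fewer cells making a transcript and less of it per cell cannot be told apart.

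**Figure D2:**
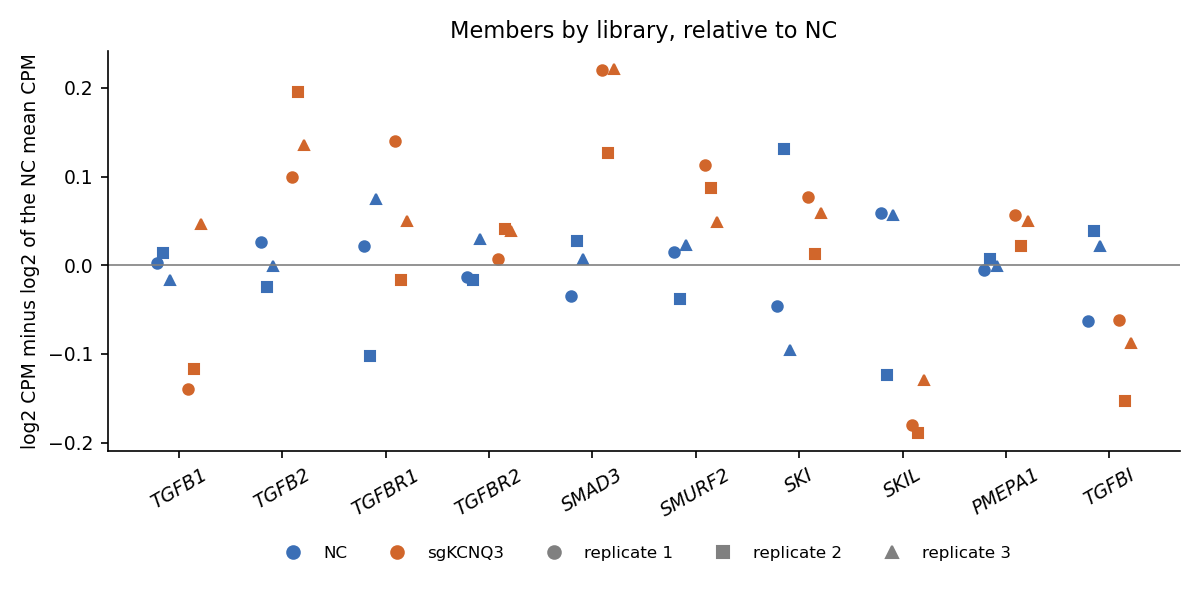
Each member's log2 CPM in each library minus the log2 of its NC mean (vertical axis), for NC (blue) and sgKCNQ3 (orange), with marker shapes for replicates 1 to 3. The sgKCNQ3 libraries lie above all NC libraries for SMAD3, TGFB2, SMURF2 and PMEPA1 and below them for SKIL, and they overlap for the other 5 genes.

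A trend with transcript length ran through the comparison and bears on most members. The length that the deposited counts and FPKM imply was used to sort the tested genes into 10 bins of equal size, numbered from the shortest genes, and the median log2 fold change climbed from -0.083 in bin 2 to 0.125 in bin 10. TGFB2, TGFBR1, SMAD3, SKI and SMURF2, with implied lengths of 5484 to 6162 bases, belonged to bin 9, whose median was 0.075 and in which 36.1% of genes were called. TGFBR2 and PMEPA1 were in bin 8 (median 0.044), SKIL in bin 10, TGFB1 in bin 4 and TGFBI in bin 5. Set against the median of its own bin, SMAD3 stood 0.115 and TGFB2 0.069 higher on the log2 scale, SKIL 0.29 lower and TGFBI 0.068 lower. The other 6 members lay between 0.026 below and 0.008 above theirs.

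**Figure D3:**
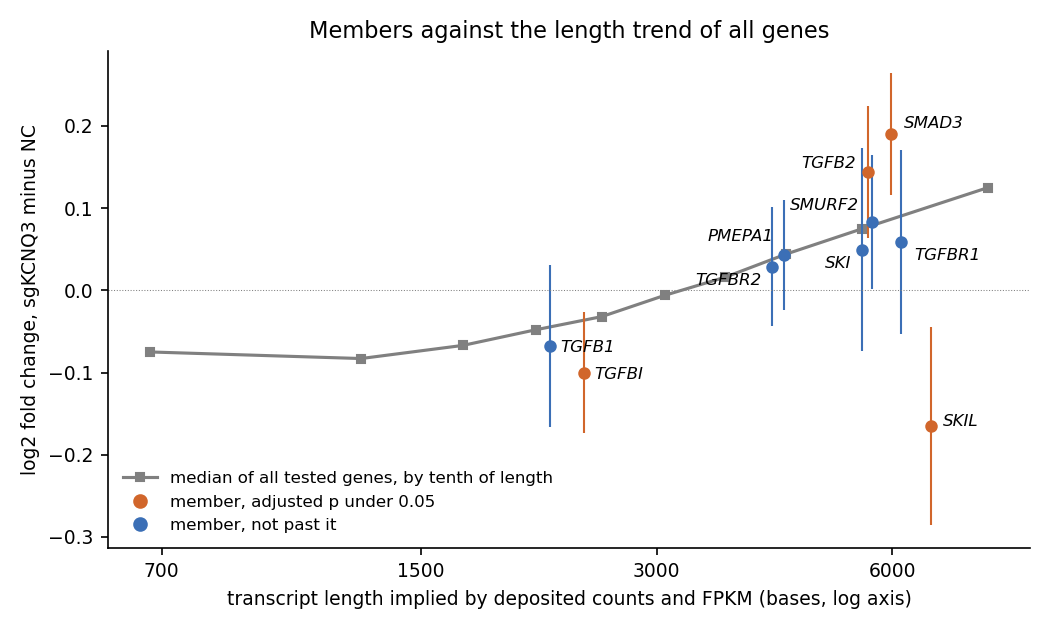
Log2 fold change of each member (points, with 95% intervals; orange where called, blue where not) against the transcript length implied by the deposited counts and FPKM (log axis), over the medians of all tested genes in 10 bins of length (grey). The grey medians climb to 0.125 in the longest bin; SMURF2, PMEPA1, TGFBR1, TGFBR2, SKI and TGFB1 lie close to the grey line, SMAD3 and TGFB2 above it and SKIL far below it.

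Of the 2 ligands, TGFB2 was higher in sgKCNQ3 and TGFB1 was not called. TGFB2 (Entrez gene ID 7042; chromosome 1, 218346235 to 218444619, plus strand, GRCh38, GENCODE release 29) encodes the isoform best known from embryonic development. The NC libraries, in the order of their replicate numbers as everywhere here, held 144, 139 and 142 CPM and the sgKCNQ3 libraries 152, 162 and 156. Every sgKCNQ3 library was above every NC library, and TGFB2 rose by 10.5% (log2 fold change 0.14, SE 0.0408, adjusted p 0.00937). With the trend over length removed its log2 fold change was 0.095 (GENCODE length, adjusted p 0.0901) or 0.052 (implied length, adjusted p 0.382), which ended the call.

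TGFB1 (Entrez gene ID 7040; chromosome 19, 41301587 to 41353911, minus strand) encodes the most widely expressed isoform. It had 78.7, 79.3 and 77.7 CPM in NC and 71.3, 72.4 and 81.2 in sgKCNQ3. The third sgKCNQ3 library was the highest of all 6 and the other two were the lowest, so the groups overlapped (log2 fold change -0.067, SE 0.0502, 95% interval -0.166 to 0.031, adjusted p 0.332). Leaving out 1 library moved it from -0.028 (without sgKCNQ3 replicate 1) to -0.12 (without sgKCNQ3 replicate 3, adjusted p 0.0809). Exons of TGFB1 overlap those of HNRNPUL1 on the opposite strand, and the sources do not say whether strand was used in counting. HNRNPUL1, named for that overlap after its values were seen, held 4641, 4799 and 4886 counts in NC and 5396, 5534 and 5299 in sgKCNQ3 (log2 fold change 0.16, adjusted p 0.00236), and its part in the TGFB1 values was not tested. Exons of SMAD3 and PMEPA1 overlap opposite-strand genes and those of TGFB2 the same-strand gene TGFB2-OT1, none of them analysed here, so counts of these members are uncertain to that extent.

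The ratio of TGFB2 to TGFB1, which a single scaling factor per library cannot move, came to 0.706, 0.690 and 0.721 in the NC libraries on the TPM scale, and those of sgKCNQ3 gave 0.861, 0.875 and 0.748. The groups did not overlap, but the exact two-sided permutation p was 0.1, the smallest that 3 against 3 libraries can give, and 0.3 after adjustment over the 3 ratios examined. The other 2 ratios, TGFBR2 to TGFBR1 and SKIL to SKI, had exact permutation p-values of 0.6 and 0.3 (adjusted 0.6 and 0.45). All 3 ratios were chosen with the values known. The 2 ligand genes lie in length bins 9 and 4, with medians of 0.075 and -0.048. With the GENCODE length trend removed the log2 fold changes were 0.095 for TGFB2 and -0.045 for TGFB1. They were 0.052 and -0.037 with the implied length trend removed, and 0.060 and -0.0002 with length and GC trends removed together. The ratio itself was not recomputed with a trend removed, and the part of length or GC in it was not tested.

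The 250 bases before the transcription start are shown for both ligand genes, which differ in their calls and in their upstream sequences, and for SMAD3, the member with the smallest p. They come from the RefSeq promoter table (GRCh38.p14), which matched 9 of the 10 members, all but SKI. Capitals mark the SMAD-binding box CAGAC, searched on both strands (CAGAC or GTCTG), and sequences read 5′ to 3′ on the gene's strand.
TGFB1, chr19:41353923-41354172, minus strand: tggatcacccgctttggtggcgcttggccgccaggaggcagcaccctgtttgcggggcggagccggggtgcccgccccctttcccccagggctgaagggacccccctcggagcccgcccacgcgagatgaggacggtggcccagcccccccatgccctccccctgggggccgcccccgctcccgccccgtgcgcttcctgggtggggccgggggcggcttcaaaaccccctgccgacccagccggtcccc
TGFB2, chr1:218345086-218345335, plus strand: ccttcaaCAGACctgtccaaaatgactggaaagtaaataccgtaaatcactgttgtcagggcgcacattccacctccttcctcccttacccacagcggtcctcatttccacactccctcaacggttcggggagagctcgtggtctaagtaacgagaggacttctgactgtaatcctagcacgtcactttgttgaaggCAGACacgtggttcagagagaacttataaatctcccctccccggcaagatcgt
SMAD3, chr15:67065352-67065601, plus strand: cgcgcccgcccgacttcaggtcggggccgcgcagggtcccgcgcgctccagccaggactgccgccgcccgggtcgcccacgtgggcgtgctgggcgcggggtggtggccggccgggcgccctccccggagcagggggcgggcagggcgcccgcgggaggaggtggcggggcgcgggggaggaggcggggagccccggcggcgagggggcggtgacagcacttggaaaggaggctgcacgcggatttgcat

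None of these 3 windows overlaps an annotated exon of its own gene, and the SMAD3 window, before the most upstream of 5 RefSeq starts, lies within the longer GENCODE gene model. The RefSeq start used for TGFB2, 218345336, lies upstream of the GENCODE start of the gene at 218346235. The TGFB2 window was 50.4% G and C and held 2 CAGAC boxes, at positions -243 and -53 from that RefSeq start. The TGFB1 and SMAD3 windows shown, at 76.8% and 80.8% G and C, held none. Of the SMAD3 windows not shown, the one before the start at 67138021 held 1 box and the one before 67166531 held 3, and the others held none. Over all RefSeq windows of that length, 38% of 35116 held at least 1 box, and among the members 10 of 24 windows did, spread over 5 genes. Windows of the same gene can overlap, so they are not separate sequences. The TGFBR1 box at -213 from the start at 99105113, for example, is also the box at -183 from 99105083. The palindrome GTCTAGAC was in no member window (0.182% of all windows), and the AP-1 motif TGANTCA was in 1 window, before a downstream SMAD3 start (6.57% of all windows). These matches describe letters only, and binding was not measured.

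Neither receptor was called. TGFBR1 (Entrez gene ID 7046; chromosome 9, 99104038 to 99154192, plus strand), the type I receptor kinase, had 51.8, 47.6 and 53.8 CPM in NC and 56.2, 50.4 and 52.8 in sgKCNQ3. The groups overlapped, with a log2 fold change of 0.059 (SE 0.0572, 95% interval -0.0528 to 0.171, adjusted p 0.466), which leaving out 1 library moved from 0.011 (without NC replicate 2) to 0.10 (without sgKCNQ3 replicate 2), never called. TGFBR2 (Entrez gene ID 7048; chromosome 3, 30606502 to 30694142, plus strand), the ligand-binding type II kinase, had 224.7, 224.2 and 231 CPM in NC and 228, 233 and 233 in sgKCNQ3. Here too the groups overlapped (log2 fold change 0.029, SE 0.0369, 95% interval -0.0435 to 0.101, adjusted p 0.593). Removing the length trend turned both signs, to -0.035 for TGFBR1 and -0.0034 for TGFBR2 with the GENCODE length, neither called.

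SMAD3 showed the largest rise among the members. SMAD3 (Entrez gene ID 4088; chromosome 15, 67063763 to 67195195, plus strand), the receptor-activated transcription factor, had 308, 322 and 318 CPM in NC and 368, 345 and 368 in sgKCNQ3. All sgKCNQ3 libraries lay above all NC libraries, and SMAD3 rose by 14.1% (log2 fold change 0.19, SE 0.0379, adjusted p 5.23e-04). It remained called with each of the 6 libraries left out in turn and with length and GC trends removed together (0.12, adjusted p 0.0131), and its call ended with the trend over GENCODE length alone (0.10, adjusted p 0.0554) or implied length (0.088, adjusted p 0.0977) removed.

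SMURF2 (Entrez gene ID 64750; chromosome 17, 64542295 to 64662068, minus strand), the ubiquitin ligase that acts on receptors and SMADs, had 123.4, 119 and 124 CPM in NC and 132, 129.7 and 126 in sgKCNQ3. The groups did not overlap, yet the difference passed no threshold (log2 fold change 0.083, SE 0.0414, 95% interval 0.002 to 0.164, adjusted p 0.135). That interval uses a normal quantile and is narrower than the quasi-likelihood F test implies, which gave an unadjusted p of 0.0554. SMURF2 was called higher on library size alone (0.12, adjusted p 0.0333) and on log2(TPM + 1) (0.17, adjusted p 0.0201). It was not called with the trend over GENCODE length (0.10, adjusted p 0.0784), length and GC (0.081, adjusted p 0.104) or implied length (-0.011, adjusted p 0.876) removed. The lengths used differed for SMURF2: 2918 bases from GENCODE, above 39.8% of tested genes, and 5650 implied, above 86% of them. Its exons overlap those of CEP95 on the opposite strand, for which the NC libraries held 686, 738 and 761 counts and the sgKCNQ3 libraries 745, 783 and 697 (adjusted p 0.976).

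The paired repressors SKI and SKIL differed in their calls. SKIL (Entrez gene ID 6498; chromosome 3, 170357678 to 170396835, plus strand), which encodes SnoN, a repressor that TGF-beta first degrades and then induces, had 41.2, 36.3 and 41.1 CPM in NC and 34.9, 34.7 and 36.1 in sgKCNQ3. The second NC library sat just above the sgKCNQ3 range and the other two well above it, and SKIL fell by 10.8% (log2 fold change -0.17, SE 0.0615, adjusted p 0.0444). Without 1 library the call stood only when NC replicate 2 was the one left out (-0.22, adjusted p 0.0121), and it ended in each of the other 5 (adjusted p 0.0575 to 0.184) and with DESeq2 (adjusted p 0.148). With length trends removed the difference was larger and called, at -0.27 (GENCODE length, adjusted p 0.00153) and -0.28 (implied length, adjusted p 0.0013).

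SKI (Entrez gene ID 6497; chromosome 1, 2228695 to 2310119, plus strand), the founding proto-oncogene of that family, had 34.7, 39.2 and 33.5 CPM in NC and 37.8, 36.1 and 37.3 in sgKCNQ3. The second NC library was the highest of the 6 and the other two the lowest (log2 fold change 0.050, SE 0.0633, 95% interval -0.0744 to 0.173, adjusted p 0.593). Leaving out 1 library moved it from 0.0037 (without NC replicate 3) to 0.12 (without NC replicate 2), never called. The difference between the changes of SKIL and SKI was tested only as their ratio, which was not called.

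Of the 2 response genes, TGFBI was slightly lower in sgKCNQ3 and PMEPA1 was not called. TGFBI (Entrez gene ID 7045; chromosome 5, 136028895 to 136063818, plus strand) encodes a secreted matrix protein that binds collagen and integrins. It had 662, 709.7 and 701 CPM in NC and 662, 621 and 650.3 in sgKCNQ3. The first library of each group lay at about the same level, so the groups overlapped, and TGFBI fell by 6.71% (log2 fold change -0.10, SE 0.0374, adjusted p 0.0453). The call stood only with NC replicate 1 left out (-0.13, adjusted p 0.0259) among the 6 tests without a library, and ended with RLE factors (-0.095, adjusted p 0.058), with DESeq2 (adjusted p 0.0853) and on log2(TPM + 1), where the difference was -0.012.

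PMEPA1 (Entrez gene ID 56937; chromosome 20, 57648392 to 57711536, minus strand) encodes a membrane protein that sequesters receptor-activated SMADs. It had 542, 547 and 544 CPM in NC and 566, 552 and 563 in sgKCNQ3. The sgKCNQ3 libraries were all higher, by a log2 fold change of 0.043 (SE 0.0343, 95% interval -0.0244 to 0.11, adjusted p 0.371), which was not called. On log2(TPM + 1) it was called higher (0.13, adjusted p 0.0331), a scale on which the median of all tested genes was 0.065.

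**Figure D4:**
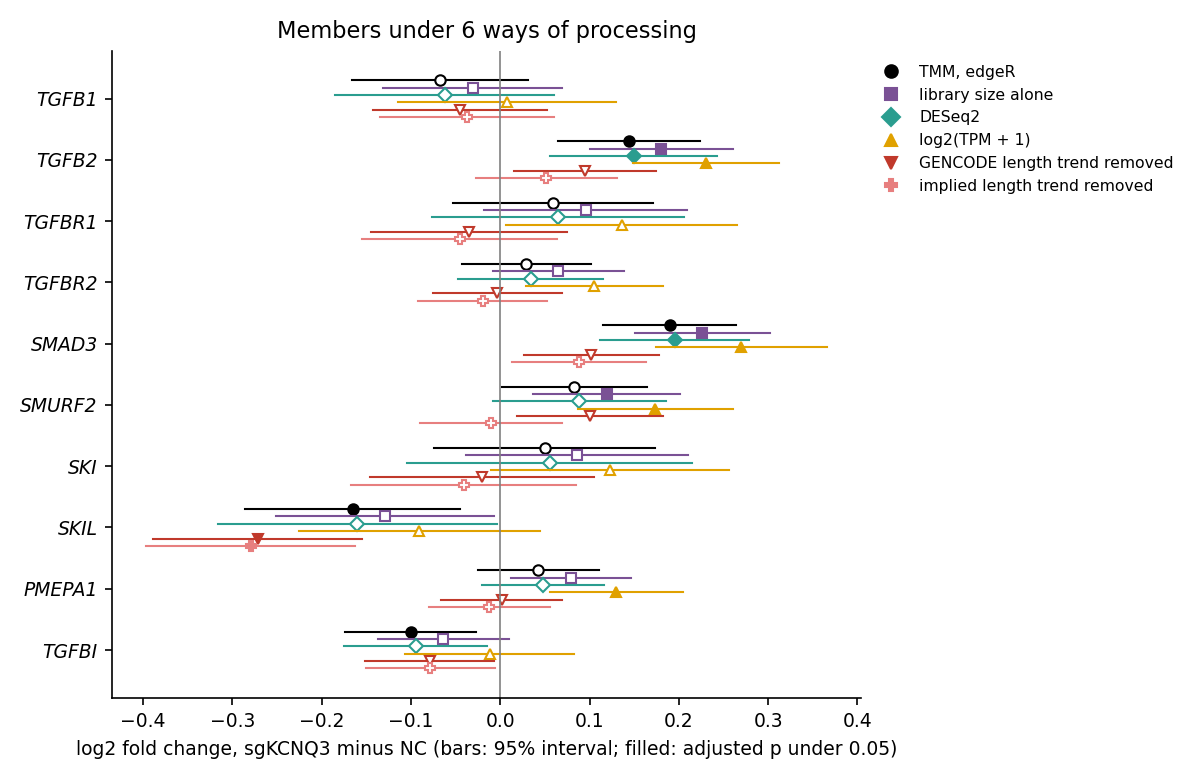
Log2 fold change of each member (horizontal axis, sgKCNQ3 minus NC, with 95% intervals) under 6 ways of processing; filled symbols passed an adjusted p of 0.05. SMAD3 and TGFB2 are called with TMM, library size alone, DESeq2 and log2(TPM + 1) but not with either length trend removed, and SKIL is called with TMM and, further from 0, with either length trend removed.

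The wider pathway was described from a list of 35 further genes, of which 31 were tested. Here and below, TPM values are group means that show the level. Unless another setting is named, fold changes, SE and adjusted p come from the edgeR fit of counts, and the TPM means can imply a different change. On log2(TPM + 1), for example, the difference was 0.41 for ITGAV and -0.22 for NEDD4L, against 0.34 and -0.32 in the main fit. Of the 31 tested genes, 10 were called higher and 3 lower, 41.9% against the background of 29.1%, with a median log2 fold change of 0.062. The list was chosen with earlier results of these data known, so its share is no result about the pathway as a set. Among genes of ligand supply, latency and activation, 4 of 10 tested rose and none fell. ITGAV, the integrin chain that helps to free latent TGF-beta, rose from 39.5 to 52.9 TPM (log2 fold change 0.34, SE 0.0477, adjusted p 1.47e-05), and LTBP1, a latent TGF-beta binding protein, rose from 11.5 to 14.9 TPM (0.30, SE 0.057, adjusted p 3.08e-04). TGFB3, the third ligand, was weakly expressed, with 46, 58 and 37 counts in NC and 64, 65 and 69 in sgKCNQ3 (0.47, SE 0.166, adjusted p 0.036), and lost its call with DESeq2 (adjusted p 0.147). Among fits lacking 1 library, it was called only without NC replicate 2 (adjusted p 0.0155) and without sgKCNQ3 replicate 2 (adjusted p 0.0495). The fourth was THBS1, an activator of latent TGF-beta (0.14, adjusted p 0.00991), named after its value was seen, which was not called with the GENCODE length trend removed (0.022, adjusted p 0.724), without NC replicate 3 (adjusted p 0.0573) or without sgKCNQ3 replicate 1 (adjusted p 0.0721).

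Among receptors and co-receptors, BAMBI, a decoy receptor without a kinase domain, rose from 27.3 to 35.5 TPM (log2 fold change 0.30, SE 0.0668, adjusted p 0.00149). ACVRL1, a type I receptor known from endothelium, held 121, 122 and 110 counts in NC and 174, 121 and 169 in sgKCNQ3 (0.37, SE 0.121, adjusted p 0.0231). Its second sgKCNQ3 library lay within the NC range, and it was not called with DESeq2 (adjusted p 0.0823). With a library left out it was called only without NC replicate 1 (adjusted p 0.0439) and without sgKCNQ3 replicate 2 (adjusted p 4.79e-04). The co-receptor genes TGFBR3, with a mean of 0.293 TPM in NC (adjusted p 0.262), and ENG, not tested at 0.0267 TPM, were very low.

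Among SMADs and their partners 2 of 7 tested rose and 1 fell. SMAD6, an inhibitory SMAD that acts mainly on BMP signals, rose from 7.62 to 10.2 TPM (log2 fold change 0.33, SE 0.0711, adjusted p 9.57e-04). SMAD4, the common partner of activated SMADs, rose from 9.87 to 11.9 TPM (0.18, SE 0.0493, adjusted p 0.00795), but was not called with the GENCODE length trend removed (0.054, adjusted p 0.454) or without sgKCNQ3 replicate 1 (0.16, adjusted p 0.0514). TGIF1, a SMAD corepressor, fell (-0.17, SE 0.0512, adjusted p 0.0154), and it was not called with DESeq2 (adjusted p 0.0645), without NC replicate 3 (adjusted p 0.102) or without sgKCNQ3 replicate 1 (adjusted p 0.0543). SMAD7, the inhibitory SMAD of the TGF-beta receptors and itself an early target, had a log2 fold change of -0.037 (SE 0.0515, adjusted p 0.625) and SMAD2 of -0.042 (SE 0.0438, adjusted p 0.505). SMAD2 was called lower with length and GC trends removed (-0.12, adjusted p 0.0314) and with the implied length trend removed (-0.19, adjusted p 0.00195).

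Of 11 genes of protein turnover, 2 rose and 2 fell. The ubiquitin ligase gene WWP1 rose from 18.0 to 24.5 TPM (log2 fold change 0.31, SE 0.0678, adjusted p 0.00168), and NEDD4L, a ligase gene whose product marks activated SMAD2 and SMAD3 for degradation, fell from 26.03 to 22.2 TPM (-0.32, SE 0.0405, adjusted p 2.25e-06). TRIM33, a SMAD4-binding nuclear protein, rose (0.25, SE 0.052, adjusted p 6.54e-04), and the deubiquitinase gene USP4 fell (-0.18, SE 0.0685, adjusted p 0.048). With the GENCODE length trend removed neither TRIM33 (0.13, adjusted p 0.0576) nor USP4 (adjusted p 0.0705) was called. USP4 was called with length and GC trends removed (adjusted p 0.0471) and with the implied length trend removed (-0.21, adjusted p 0.0285). It was not called with RLE factors (adjusted p 0.054) or DESeq2 (adjusted p 0.151). With a library left out USP4 was called only without sgKCNQ3 replicate 2 (adjusted p 0.00739).

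A list of 25 genes known as TGF-beta targets in other epithelial cells held 24 in the table and 22 tested. Of these, 4 were called higher and 10 lower, 63.6% against 29.1% of all tested genes, with a median log2 fold change of -0.11. This list too was chosen with earlier results of these data known, so its share is no result about the targets as a set. The list was not sorted by whether TGF-beta induces or represses a gene, so the split and the median give no direction for the pathway. CCN2, a matricellular growth factor, held 1690, 1813 and 1750 counts in the NC libraries and fell from 81.9 to 70.6 TPM (-0.30, SE 0.0421, adjusted p 7.97e-06). PDGFB, a platelet-derived growth factor chain, fell from 55.7 to 46.03 TPM (-0.33, SE 0.0446, adjusted p 5.41e-06). SNAI2, a transcription factor of epithelial-mesenchymal transition, fell as well (-0.25, SE 0.0665, adjusted p 0.00642), though it was not called on log2(TPM + 1) (-0.16, adjusted p 0.149).

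The basement membrane genes COL4A1 (log2 fold change -0.18, adjusted p 0.00144) and COL4A2 (-0.15, adjusted p 0.00423) and the transcription factor gene BHLHE40 (-0.16, adjusted p 0.00494) were called lower. COL4A1 and COL4A2 are neighbours that share a promoter. On log2(TPM + 1) none of these 3 was called. ID2, an inhibitor of helix-loop-helix factors that TGF-beta is known to repress in epithelium, rose from 85.6 to 120 TPM (0.41, SE 0.0549, adjusted p 3.92e-06), and its relative ID1 also rose (0.17, SE 0.0532, adjusted p 0.0181). The ID1 call ended without NC replicate 1 (adjusted p 0.0777), NC replicate 3 (adjusted p 0.118) or sgKCNQ3 replicate 1 (adjusted p 0.0687). The integrin gene ITGB4 (0.14, adjusted p 0.00602) and the fibronectin gene FN1 (0.13, adjusted p 0.0236) were the other two called higher. The calls of ITGB4 (0.064, adjusted p 0.247) and FN1 (0.0014, adjusted p 0.985) ended with the GENCODE length trend removed. With a library left out, ITGB4 lost its call without NC replicate 3 (adjusted p 0.0552), and FN1 kept it only without sgKCNQ3 replicate 2 (adjusted p 0.0137) or 3 (adjusted p 0.0098). Several of these targets also answer to other pathways, and TGF-beta activity itself was not measured.

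**Figure D5:**
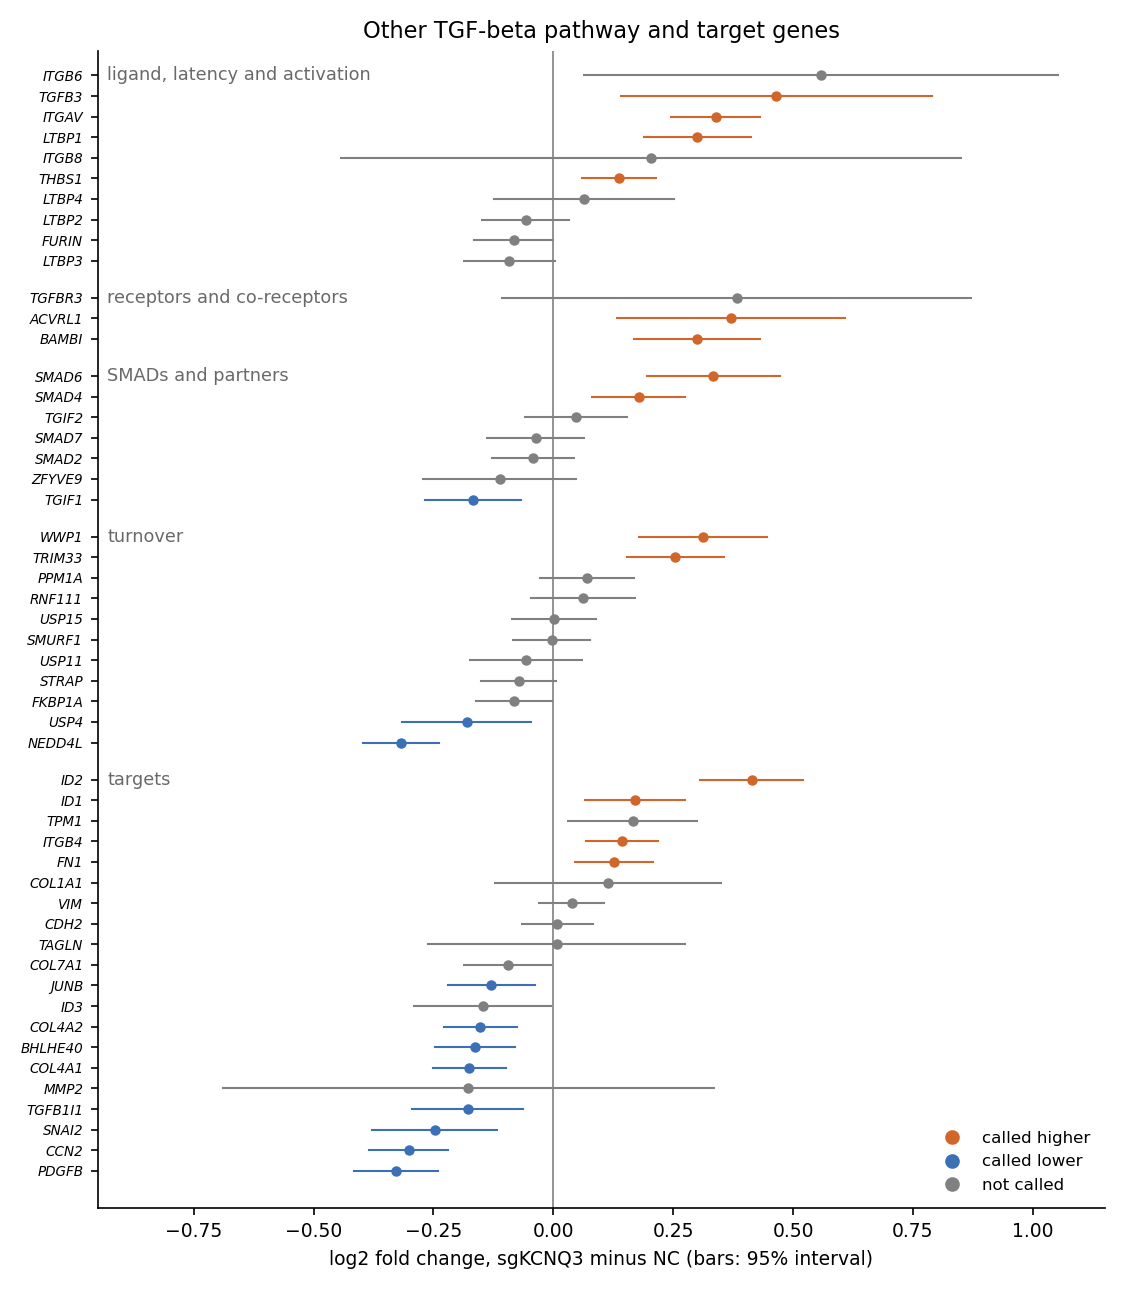
Log2 fold change, sgKCNQ3 minus NC, with 95% intervals, of the tested genes of the wider pathway in 4 classes and of genes of the target list; orange genes were called higher, blue ones lower and grey ones not called. Among the 10 ligand supply genes 4 are orange, 6 grey and none blue, and among the targets drawn blue points outnumber orange ones.

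Of the named genes of the pathway and target lists, 9 were called in every alternative run: ITGAV, LTBP1, BAMBI, SMAD6, WWP1 and ID2 higher, and NEDD4L, CCN2 and PDGFB lower, in all 13 alternative settings and in all 6 tests that left out a library. Of the 4 members called, none did so.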

How the data were processed

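The authors deposited an estimated count of reads for each gene, not normalized and often not whole, beside TPM and FPKM values and a signal column of counts divided by 1 factor per library, per the file headers. The authors' group means were deposited too, also as a whole-number score, and entered no test. Per the submitters' processing notes, reads were placed on GRCh38.p13. An aligner, a counter and the use of strand were not stated in any source at hand.

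Titles gave each library's group and replicate number. Counts were rounded, filtered with filterByExpr (minimum count 10), which left 12565 genes, scaled with TMM factors and tested with edgeR 4.0.16 (R 4.3.3; robust quasi-likelihood F test) with Benjamini-Hochberg adjustment over all tested genes and a threshold of 0.05. The procedure was tested on simulated data. CPM values use TMM-scaled library sizes, and errors are SD over 3 libraries. The 95% intervals are the estimate plus or minus the SE times a normal quantile, and cover only the spread between these libraries. They are narrower than the F test implies, so an interval can exclude a lack of change where the unadjusted p is above 0.05. GENCODE release 29 gave positions and, for 16032 genes, length and GC content. The members and lists were chosen with earlier results of these data known. Named genes were all members, KCNQ3, up to 6 called genes per list and direction with the smallest p, the other ligand, receptor and SMAD genes, and CCN2, SNAI2 and SMAD7; some genes of the target list are counted but not reported here.

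Alternatives were library size alone, upper quartile and RLE factors, DESeq2 1.42.0, limma 3.58.1 (voom, and trend on log2(TPM + 1) and log2(TPM + 0.1)), no filter, a filter of 2 CPM in at least 3 libraries, a block for the replicate number, per-library trends over length, or length and GC content, removed (splines with 5 degrees of freedom), and each library left out. The trend over implied length was added after the data were seen. Figures were drawn with matplotlib 3.10.9.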

Additional observations from a re-analysis of the deposited data

How the results depend on the processing

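The count of called genes stayed within 1.5 times 3658, at 2448 (DESeq2) to 3822 (no filter). The count of called members, 4, was 2 with RLE factors, upper quartile factors, DESeq2, the replicate block and length and GC trends removed, and 1 with either length trend alone removed; without 1 library it was 2 to 3. The higher members, 2, numbered 4 on log2(TPM + 1) and log2(TPM + 0.1), 1 with length and GC trends removed and 0 with either length trend alone removed. The lower members, 2, numbered 0 with library size alone, upper quartile or RLE factors, DESeq2, both TPM scales and the replicate block, 1 with limma-voom and with each removed trend, and 0 to 1 without 1 library. Called targets, 14, numbered 8 on both TPM scales and 8 to 14 without 1 library (8 without NC replicate 3 and 9 without sgKCNQ3 replicate 1); called pathway genes, 13, numbered 7 to 13 (8 without NC replicate 3 and 7 without sgKCNQ3 replicate 1). The share of higher genes among all calls was 48.2% with TMM factors, 64.5% with library size alone and 80.8% on log2(TPM + 1). The causes of these shifts were not tested.

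TGFB1 changed sign on log2(TPM + 1) and log2(TPM + 0.1), at 0.0074 and 0.0075. TGFB2 lost its call with the GENCODE length, length and GC, and implied length trends removed (0.0948, 0.0599 and 0.0516), and SMAD3 with both length trends (0.102 and 0.0884). TGFBR1 (-0.0347, -0.0643 and -0.0452) and TGFBR2 (-0.0034, -0.0022 and -0.0199) changed sign with all 3. SKI changed sign with the 2 length trends (-0.0203 and -0.0408), and PMEPA1 (-0.0123) and SMURF2 (-0.0108) with the implied length trend. PMEPA1 was called on the TPM scales (0.1298 and 0.1304), and SMURF2 there (0.174 and 0.178) and with library size alone (0.119). TGFBI lost its call with RLE factors (-0.0947), upper quartile factors (-0.0802), library size alone (-0.0637), DESeq2 (-0.0947), both TPM scales (-0.0119), the replicate block (-0.10) and the GENCODE length, length and GC, and implied length trends removed (-0.079, -0.069 and -0.0783); without 1 library it ranged from -0.13 to -0.0664. SKIL lost its call with RLE factors (-0.16), upper quartile factors (-0.146), library size alone (-0.129), DESeq2 (-0.16), limma-voom (-0.163), both TPM scales (-0.0907 and -0.10) and the replicate block (-0.165); without 1 library it ranged from -0.224 to -0.135. Of the other named genes, SMAD7 (0.0278 and 0.0284) and SMAD2 (0.0432 and 0.0464) changed sign on the TPM scales, FN1 with the implied length trend removed (-9e-04), and CEP95 with length and GC trends removed (-0.0013), and across the tests without 1 library, at -0.0351 (without sgKCNQ3 replicate 2) to 0.0546, with -0.029 without NC replicate 1.

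No pairing by replicate number was visible in expression: deviations of same-numbered libraries correlated at 0.014, -0.098 and 0.008 across genes, and no library correlated best with its own number. The labels do not say whether same-numbered libraries were prepared together, and these correlations cannot decide it. The fit with the replicate block called 3136 genes. With 3 libraries a group, an exact permutation test of 1 gene cannot go below 0.1. The changes of TGFB1, TGFBR1, TGFBR2 and SKI lay near the spread between libraries.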
